A study of Mus musculus with 12 samples.

Results

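The genes of cholesterol synthesis, of its control by the SREBP transcription factors and of sterol handling were followed in mouse cortex and in cultured neural progenitor cells (NPC). They are 37 of the 34102 genes in the count table, taken by gene symbol from a list of sterol genes and sorted by role. There were 8 genes of the mevalonate route, 3 of squalene, 8 that turn lanosterol into cholesterol, 7 of SREBP control, 9 of sterol handling and 2 of fatty acid synthesis. All 37 had enough counts to be tested in both systems.

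Total RNA of C57BL/6 mice was sequenced as 12 libraries in 4 groups of 3. Both cortex groups carry the genotype Srsf10 flox/flox, without the Nestin-Cre transgene in the control group and with it in the group labelled cKO. Under the Nestin promoter, Cre is made by neural progenitors and passed on to the neurons and glia that arise from them. Srsf10 is an SR-type regulator of splicing. No group had Nestin-Cre without floxed Srsf10, so loss of the gene and an effect of the transgene cannot be told apart in cortex. The NPC were primary cultures grown in suspension with the growth factors bFGF and EGF, with the genotype WT in the control group and SRSF10 knockdown in the other. The labels describe lentivirus infection at a multiplicity of 30 and RNA extraction 72 h later, and they do not say which virus the control cells received. The age of the animals is not given, nor that each library came from its own animal or culture. The p-values below therefore measure only the spread between these libraries, which may be in part technical. Each of the 4 groups held both sexes by the Y-linked gene Ddx3y. In cortex, control library 1 and labelled cKO libraries 1 and 2 were female and the others male.

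Cells build cholesterol from acetyl-CoA, first through mevalonate to farnesyl diphosphate, then through squalene to lanosterol and on to cholesterol. The transcription factor SREBP2, the product of Srebf2, turns these genes on when sterols in the endoplasmic reticulum are low: Scap carries it to the Golgi, where the proteases encoded by Mbtps1 and Mbtps2 release it, and the Insig proteins hold it back when sterols are plentiful. When sterols are plentiful, oxysterols activate the LXR receptors, encoded by Nr1h2 and Nr1h3, which turn on efflux pumps such as Abca1. Brain makes nearly all of its own cholesterol, because lipoproteins of the blood hardly cross into it.

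Libraries held 26074094 to 36713205 counts. The Srsf10 count did not separate the groups it is meant to separate. In cortex it stood at 206 ± 11.3 CPM (counts scaled to library size) in the controls and 211 ± 20.5 CPM in the libraries labelled cKO (mean ± SD, n = 3; log2 fold change 0.03, adjusted p = 0.917). In NPC it stood at 233 ± 13.6 and 225 ± 11.1 CPM (n = 3; -0.05, adjusted p = 0.774). The table holds 1 count per gene, so loss of a single exon is not seen in it. In NPC the 95% interval of the log2 fold change ran from -0.21 to 0.12 without pairs. The labelled knockdown is thus not shown by these counts, and the reason was not tested. The groups are called by their labels below. The 7 listed markers of neurons summed to between 9073 and 9466 CPM in the cortex libraries, and the 6 markers of progenitors to between 8945 and 10869 CPM in NPC. In NPC the 7 neuronal markers still summed to between 1020 and 1132 CPM in the controls and between 1077 and 1328 CPM in the labelled knockdown. Only 2 of the 7, Tbr1 and Stmn2, were under 1 CPM there, while all 5 microglial markers were. The choroid plexus gene Ttr stood at 1194 CPM in control cortex library 2 and 1082 CPM in cKO library 3, against 2.35 to 100 CPM in the other 4 cortex libraries.

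Among the NPC libraries, those with the same number lay close together, in the genes of cholesterol synthesis more than in most. After the group means were taken out, same-numbered libraries correlated at 0.48, 0.50 and 0.44 over genes, while the cortex numbers did not pair. NPC was therefore fitted both without pairs and with the replicate number as a block. The block compares each labelled knockdown library with the control of its own number. For many single genes below, only the value with pairs is given. Without pairs edgeR called 0 of the 37 genes, and their adjusted p ran from 0.0528 to 0.997.

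The promoters of the synthesis genes are shown first, since 17 of the 19 synthesis genes were called higher in NPC with pairs, though 0 of them without pairs. RefSeq (GRCm38.p6) had a promoter entry, from 250 bases before to 50 after a gene's start, for 30 of the 37 genes, as 39 entries in all. Promoters were searched on both strands for a sterol regulatory element, TCACNCCAC, to which SREBP can bind. The CCAAT box, to which the SREBP partner NF-Y binds, was searched for too, as were the E-box CACGTG and the Sp1 box GGGCGG. Below are the 250 bases before the start of Hmgcs1 (chr13:119690101-119690350, plus strand), Mvd (chr8:122443423-122443672, minus strand), Lss (chr10:76531355-76531604, plus strand) and Nsdhl (chrX:72918271-72918520, plus strand), from different steps of the pathway. Ggps1 (chr13:14063489-14063738, minus strand) is shown beside them as the mevalonate gene that was not called in either fit. Capitals mark the CCAAT box (CCAAT or, on the other strand, ATTGG) and, in Hmgcs1, the sterol regulatory element.
Hmgcs1: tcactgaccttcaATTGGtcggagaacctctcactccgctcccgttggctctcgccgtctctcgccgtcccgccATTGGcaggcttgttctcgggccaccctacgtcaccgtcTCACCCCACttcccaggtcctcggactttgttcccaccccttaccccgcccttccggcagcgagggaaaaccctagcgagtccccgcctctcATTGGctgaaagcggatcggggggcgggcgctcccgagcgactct
Mvd: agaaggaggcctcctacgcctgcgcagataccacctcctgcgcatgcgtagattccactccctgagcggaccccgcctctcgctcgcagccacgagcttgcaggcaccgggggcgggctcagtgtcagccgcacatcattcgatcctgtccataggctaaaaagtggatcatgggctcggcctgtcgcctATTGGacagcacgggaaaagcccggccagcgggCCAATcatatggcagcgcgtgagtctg
Lss: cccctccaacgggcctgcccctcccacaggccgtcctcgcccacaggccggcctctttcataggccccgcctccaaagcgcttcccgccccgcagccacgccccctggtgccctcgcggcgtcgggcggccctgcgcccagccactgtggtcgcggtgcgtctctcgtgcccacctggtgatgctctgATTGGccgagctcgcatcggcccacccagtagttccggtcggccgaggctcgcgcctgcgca
Nsdhl: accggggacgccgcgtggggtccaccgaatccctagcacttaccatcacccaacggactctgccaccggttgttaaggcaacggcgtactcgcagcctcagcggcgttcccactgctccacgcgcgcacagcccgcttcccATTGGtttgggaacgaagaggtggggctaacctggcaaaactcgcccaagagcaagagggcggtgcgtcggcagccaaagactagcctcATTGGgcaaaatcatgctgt
Ggps1: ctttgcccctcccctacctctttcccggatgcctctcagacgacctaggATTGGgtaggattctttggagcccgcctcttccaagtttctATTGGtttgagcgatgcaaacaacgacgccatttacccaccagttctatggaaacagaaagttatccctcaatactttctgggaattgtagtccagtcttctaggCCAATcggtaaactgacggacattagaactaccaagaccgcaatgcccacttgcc

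Hmgcs1 was the only one of the 30 genes with the strict sterol regulatory element, which reads TCACCCCAC and starts 137 bases before the gene's start (position -137). The element stood in 1.42% of all genes tested in NPC with an entry (152 of 10729). Counted by promoter, it stood in 1.24% of all 32851 promoters of the same length. A CCAAT box stood in the promoters of 15 of the 16 synthesis genes with an entry (93.8%), Acat2 being the exception, and in 8 of 14 other members (57.1%). Among all genes tested in NPC with an entry it stood in 43.2% (4639 of 10729). An E-box stood in 3 of the 16 synthesis genes (18.8%) and a Sp1 box in 14 (87.5%). The shares of all genes tested in NPC with an entry were 11.4% and 68.7%. Ggps1 carried 3 CCAAT boxes and Lss 1. Whether the number of boxes goes with the size of the difference was not tested. A match describes these letters and is not a shown binding site.

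In NPC labelled knockdown, 17 of the 19 synthesis genes rose with same-numbered libraries as pairs, from the first step at Acat2 to the last at Dhcr7. The median log2 fold change of the 19 was 0.69, and 17 of them were higher in all 3 pairs. Over the whole list of 37, 22 genes rose and 3 fell with pairs, while 12 did not pass the test (median 0.50, against 0.00 over all genes). Of all 14258 genes tested, 11.9% were called higher and 12.8% lower in the same fit. Without pairs, edgeR called 0 of the 37 genes in either direction, against 0.351% of all genes called higher and 1.54% lower. At an unadjusted p under 0.05, 20 members were higher and 2 lower (8.41% and 9.94% of all genes), and DESeq2 without pairs called 14 higher and 1 lower (2.67% and 4.47%). The levels of the groups did not overlap, with the labelled knockdown higher, for 12 members (10.9% of all genes), and lower for 2 (12.5%). Higher in all 3 pairs were 24 members (27.3% of all genes) and lower in all 3 were 6 (26.4%). In bulk RNA, fewer cells of a type and less RNA per cell cannot be told apart.

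**Figure D1:**
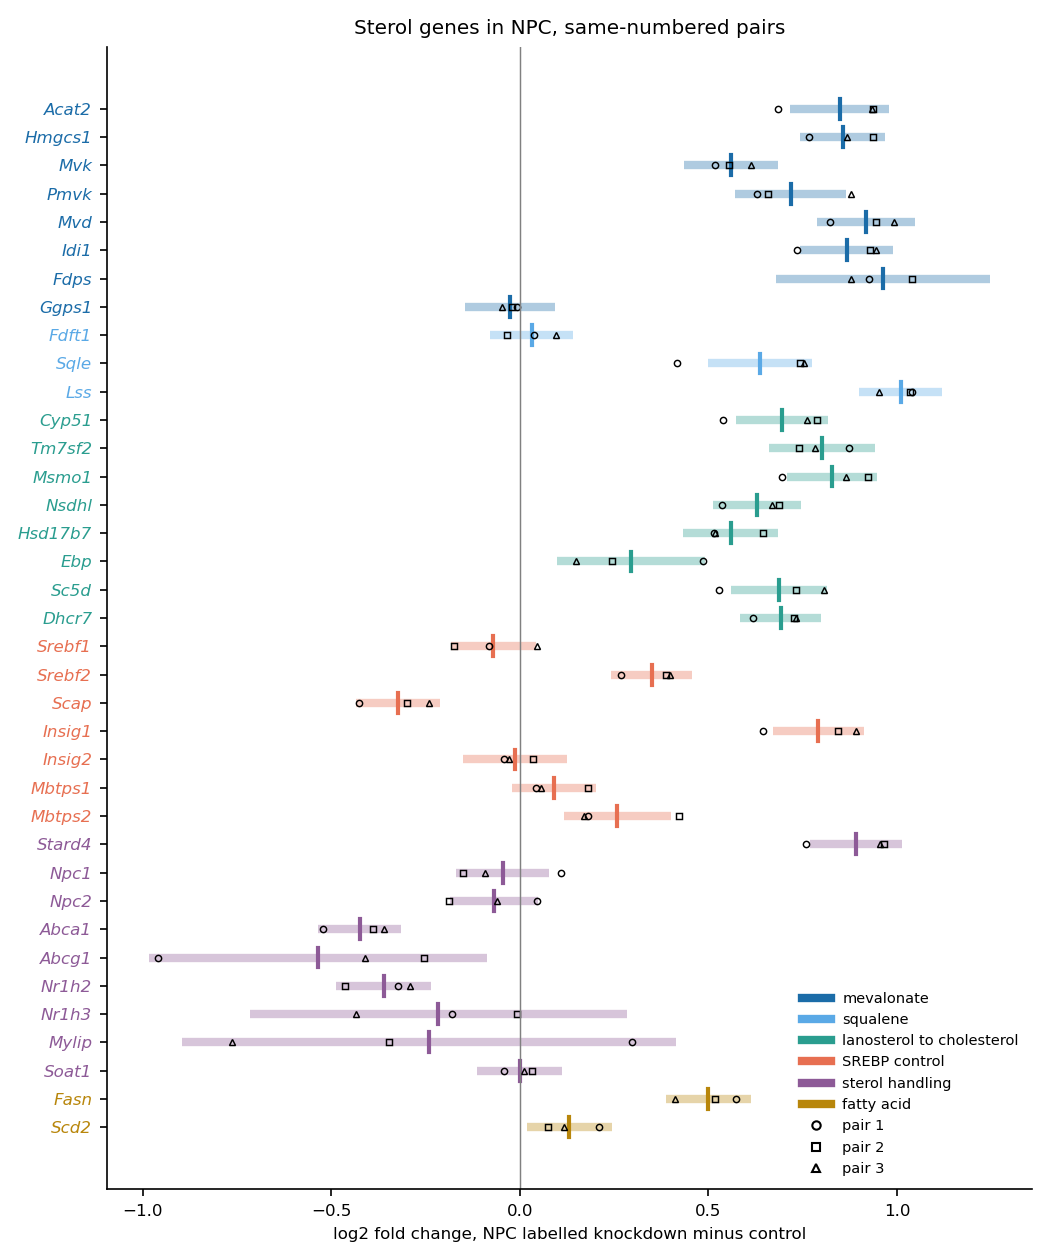
Log2 fold change of the 37 genes in NPC, labelled knockdown minus control (x axis), with 1 row per gene coloured by role. Vertical ticks are the fit with pairs, bars its 95% intervals, and open symbols the 3 pair differences; 17 of the 19 synthesis genes lie wholly to the right of 0, and Ggps1 and Fdft1 lie on it.

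Within the mevalonate route 7 of 8 genes rose with pairs (11.9% of all genes), and 0 were called without pairs. The median log2 fold change of the 8 with pairs was 0.85. Hmgcs1 (chr13:119690379-119708260, plus strand, mm10) encodes the synthase that makes HMG-CoA, and by counts per kilobase of exon it was the most abundant of the 37 genes in cortex and the second after Scd2 in NPC. It stood at 1132, 903 and 689 CPM in control libraries 1, 2 and 3, and at 1926, 1728 and 1258 CPM in labelled knockdown libraries 1, 2 and 3. Every labelled knockdown library lay above every control, and within each group library 1 was highest and library 3 lowest. Its fold was 1.81 with pairs (log2 fold change 0.86, 95% interval 0.74 to 0.97, adjusted p = 3.52e-07; without pairs 0.85, SE 0.21, adjusted p = 0.10).

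Acat2, the thiolase of the first step, stood at 102, 65.4 and 48.5 CPM in the controls and at 164, 125 and 92.8 CPM in the labelled knockdown. The groups overlapped, since control 1 lay above labelled knockdown 3, yet each pair differed by 0.69 to 0.94 on the log2 scale (0.85 with pairs, SE 0.06, adjusted p = 1.01e-06). Mvd, the decarboxylase that makes isopentenyl diphosphate, stood at 44.7, 36.3 and 24.1 CPM in the controls and at 79.1, 70.0 and 48.0 CPM in the labelled knockdown. Here the groups did not overlap (0.92 with pairs, SE 0.06, adjusted p = 5.60e-07). Idi1, the isomerase of the next step, rose from 71.6 ± 23.4 to 129 ± 32.4 CPM (n = 3; 0.87 with pairs, SE 0.06, adjusted p = 5.61e-07). The kinases Mvk and Pmvk rose with pairs by 0.56 (SE 0.06) and 0.72 (SE 0.07), and for Pmvk the groups did not overlap.

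Fdps encodes farnesyl diphosphate synthase, which feeds both the sterol and the isoprenoid branch. It stood at 6.18, 3.94 and 2.36 CPM in NPC controls and at 11.8, 8.18 and 4.40 CPM in the labelled knockdown, a rise of 0.96 with pairs (SE 0.13, adjusted p = 0.000158). In cortex the same gene stood at 158 to 199 CPM, many times its NPC level. Its exons share 1124 bases on the same strand with the annotated gene Gm43738, which is not in the count table, so its level is uncertain in both systems. The reason for the gap between the systems was not tested. Ggps1 makes geranylgeranyl diphosphate for the isoprenoid branch rather than sterols. It stood at 55.7, 58.0 and 58.8 CPM in the controls and 55.4, 57.3 and 56.9 CPM in the labelled knockdown, with a paired log2 fold change of -0.03 (95% interval -0.14 to 0.09).

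Of the 3 squalene genes, Lss and Sqle rose with pairs, as did 11.9% of all genes, and Fdft1 did not pass. Lss (chr10:76531588-76557138, plus strand) encodes lanosterol synthase and showed the largest log2 fold change of the 37 genes with pairs. It stood at 129, 91.8 and 60.7 CPM in the controls and at 264, 188 and 117 CPM in the labelled knockdown. Control 1 lay above labelled knockdown 3, but each labelled knockdown library was about as far above its own control, by 1.04, 1.04 and 0.95 on the log2 scale. With pairs Lss rose by 1.01 on the log2 scale, or 2.01-fold (SE 0.05, 95% interval 0.90 to 1.12, adjusted p = 7.15e-08), and without pairs its value was 1.02 (SE 0.34, adjusted p = 0.187).

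Sqle, squalene epoxidase, stood at 262, 230 and 192 CPM in the controls and 350, 385 and 323 CPM in the labelled knockdown. The groups did not overlap (0.64 with pairs, SE 0.06, adjusted p = 1.49e-05; without pairs 0.63, SE 0.12, adjusted p = 0.0533). Fdft1, squalene synthase, stands between Fdps and Sqle in the pathway. Its levels were 135, 111 and 80.5 CPM in the controls and 139, 108 and 86.0 CPM in the labelled knockdown, a paired difference of 0.03 (95% interval -0.08 to 0.14). Fdft1 thus shared the fall from library 1 to library 3 with its neighbours in the pathway, and not the difference between the groups. Its exons share 774 bases with Ctsb on the other strand, and the sources used here do not say whether counting used the strand.

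All 8 genes from lanosterol to cholesterol rose with pairs (11.9% of all genes), at a median log2 fold change of 0.69. For 6 of the 8 the groups did not overlap, with the labelled knockdown higher (10.9% of all genes). Without pairs 0 of the 8 were called. Cyp51 (chr5:4081145-4104746, minus strand), the demethylase that acts on lanosterol, stood at 311, 256 and 201 CPM in the controls and 452, 441 and 342 CPM in the labelled knockdown. Every labelled knockdown library lay above all 3 controls (0.69 with pairs, SE 0.06, adjusted p = 2.78e-06; without pairs 0.68, SE 0.17, adjusted p = 0.102). Msmo1, the C4-methyl oxidase, stood at 179, 152 and 112 CPM in the controls and 290, 288 and 205 CPM in the labelled knockdown, also without overlap. It rose by 0.83 with pairs (SE 0.06, adjusted p = 6.42e-07).

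Dhcr7 catalyses the last step to cholesterol. It stood at 178, 130 and 111 CPM in the controls and at 273, 215 and 184 CPM in the labelled knockdown, with no overlap (0.69 with pairs, SE 0.05, adjusted p = 1.11e-06). Sc5d, the lathosterol desaturase just before it, rose by 0.69 with pairs (SE 0.06), and Tm7sf2, a sterol reductase, by 0.80 (SE 0.07). Nsdhl and Hsd17b7, which complete the removal of the C4 methyl groups, rose by 0.63 (SE 0.05) and 0.56 (SE 0.06). Ebp, the isomerase that shifts the ring double bond, had the smallest rise of the 8, from 16.1 ± 0.734 to 19.8 ± 3.17 CPM (n = 3; 0.29 with pairs, SE 0.09, adjusted p = 0.0308). Its call was lost in each of the 3 paired fits that left out 1 pair. The exons of Tm7sf2 share 532 bases with Vps51 on the same strand, and those of Cyp51 share 166 with Akap9 on the other, so reads of these genes could be split.

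Among the 7 control genes the members went different ways: with pairs Insig1, Srebf2 and Mbtps2 rose, Scap fell, and Srebf1, Insig2 and Mbtps1 did not pass. In that fit 11.9% of all genes were called higher and 12.8% lower, so the share called lower was near that over all genes. Insig1 (chr5:28071363-28078662, plus strand) holds SREBP in the endoplasmic reticulum and is itself a known SREBP target. It stood at 227, 186 and 141 CPM in the controls and 355, 334 and 261 CPM in the labelled knockdown, and the groups did not overlap. Its rise of 0.79 with pairs (SE 0.06, 95% interval 0.67 to 0.91, adjusted p = 9.18e-07) lay above the median of 0.69 of the synthesis genes. Its relative Insig2 stood at 32.0 ± 1.99 and 31.8 ± 1.52 CPM (n = 3; -0.01 with pairs, 95% interval -0.15 to 0.13).

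Srebf2 (chr15:82147181-82205379, plus strand) stood at 374, 311 and 280 CPM in the controls and 450, 408 and 368 CPM in the labelled knockdown. Only control 1 reached into the range of the labelled knockdown, and the paired rise was 0.35 (SE 0.05, adjusted p = 0.000220). Srebf1, whose product acts more on fatty acid genes, stood at 315, 294 and 314 CPM against 298, 261 and 324 CPM. The groups overlapped, and its paired log2 fold change was -0.07 (95% interval -0.18 to 0.04).

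Scap (chr9:110333288-110384950, plus strand), the escort that SREBP needs to leave the endoplasmic reticulum, stood at 196, 212 and 233 CPM in the controls and at 146, 173 and 197 CPM in the labelled knockdown. It was lower in all 3 pairs, with labelled knockdown 3 just above control 1, and its order of libraries ran opposite to that of the synthesis genes. It fell by 0.32 on the log2 scale with pairs (SE 0.05, adjusted p = 0.000541). The protease gene Mbtps2 rose from 47.8 ± 1.77 to 57.5 ± 6.92 CPM (n = 3; 0.26 with pairs, SE 0.07, adjusted p = 0.0111), a call that was lost without pair 2 and without pair 3. Its exons share 2867 bases with Yy2 on the same strand. The other protease gene, Mbtps1, stood at 147 ± 10.7 and 156 ± 8.61 CPM (n = 3; 0.09 with pairs, 95% interval -0.02 to 0.20).

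Of the 9 genes of sterol handling, Stard4 rose, Abca1 and Nr1h2 fell and 6 did not pass, all with pairs. In that fit 11.9% of all genes were called higher and 12.8% lower, so the share called higher was near that over all genes. Stard4 encodes a carrier that moves cholesterol between membranes inside the cell. It stood at 107, 75.8 and 52.0 CPM in the controls and 182, 148 and 101 CPM in the labelled knockdown, so that control 1 lay just above labelled knockdown 3. Its paired rise of 0.89 (SE 0.06, adjusted p = 4.43e-07) was the largest outside the synthesis genes.

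Abca1 (chr4:53030787-53159895, minus strand), the pump that exports cholesterol to lipoproteins, stood at 238, 254 and 351 CPM in the controls and at 166, 194 and 273 CPM in the labelled knockdown. It was lower in all 3 pairs while the groups overlapped, and library 3 was its highest in both groups, where the synthesis genes were lowest. With pairs it fell by 0.42 on the log2 scale (SE 0.05, adjusted p = 5.87e-05), and without pairs its value was -0.42 (SE 0.21, adjusted p = 0.347). Nr1h2 (chr7:44549616-44553951, minus strand), which encodes LXR beta, stood at 60.9, 65.5 and 65.0 CPM in the controls and 48.7, 47.5 and 53.0 CPM in the labelled knockdown. The groups did not overlap, and it fell by 0.36 on the log2 scale with pairs (SE 0.06, adjusted p = 0.000547; adjusted p = 0.0528 without pairs).

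The efflux pump gene Abcg1 was low in NPC, at 3.04, 3.25 and 3.24 CPM in the controls and 1.53, 2.72 and 2.42 CPM in the labelled knockdown. The groups did not overlap, but the paired difference of -0.53 (SE 0.21) did not pass (adjusted p = 0.0796). Nr1h3, for LXR alpha, and Mylip, a ubiquitin ligase that marks lipoprotein receptors for breakdown, stood near 2 CPM or less, at -0.22 (SE 0.23) and -0.24 (SE 0.30). Npc1 and Npc2, which bring cholesterol out of lysosomes, stood at 155 ± 10.2 and 178 ± 5.21 CPM in the controls (n = 3), with paired differences of -0.05 (95% interval -0.17 to 0.08) and -0.07 (-0.19 to 0.05). Soat1, which esterifies cholesterol for storage, had a paired difference of 0.00 (95% interval -0.11 to 0.11).

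**Figure D2:**
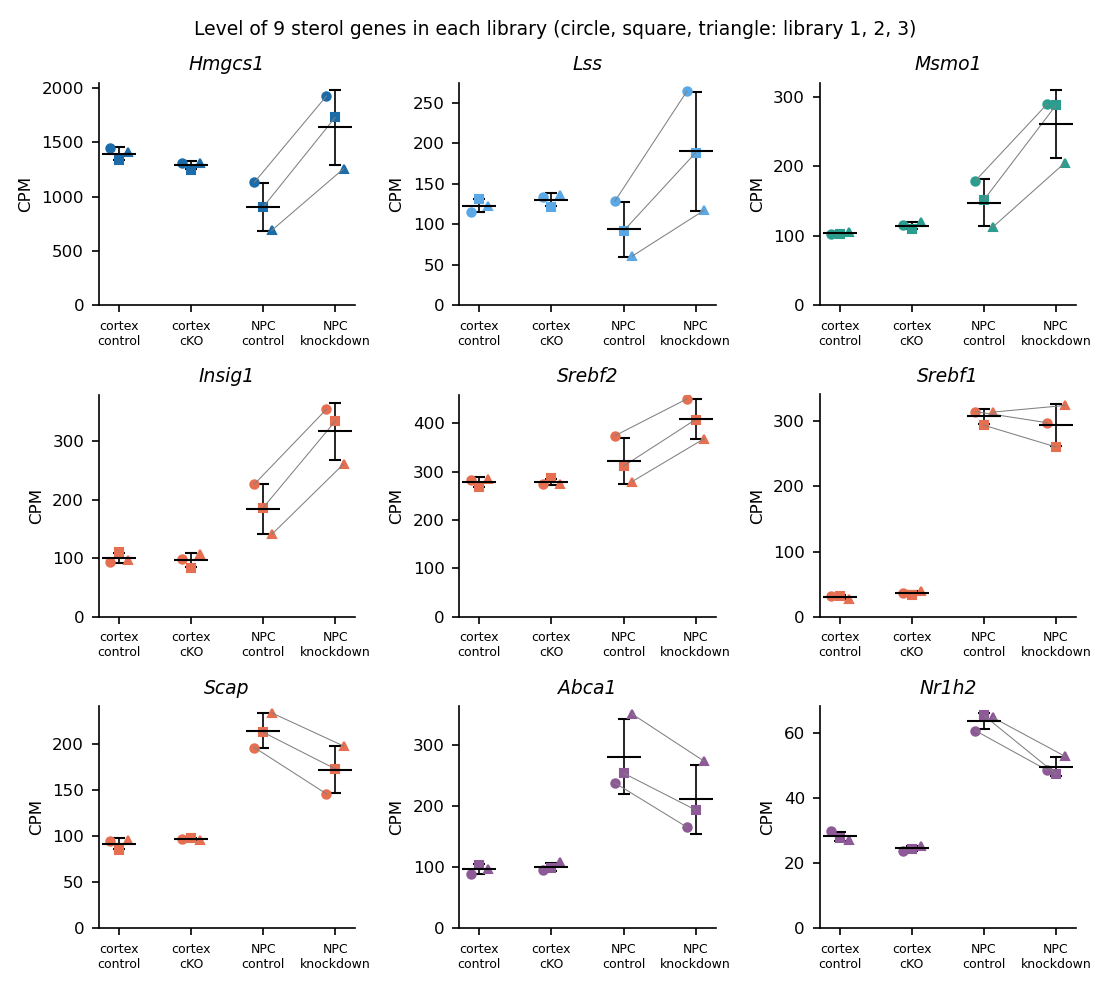
Level of 9 sterol genes in CPM (y axes, starting at 0) in the 4 groups, with symbols for library 1, 2 and 3, bars for mean ± SD (n = 3) and grey lines joining same-numbered NPC libraries. Hmgcs1, Lss, Msmo1, Insig1 and Srebf2 go up along every line, Scap, Abca1 and Nr1h2 go down along every line, and the cortex groups lie close together.

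The 2 fatty acid genes differed. Fasn, fatty acid synthase, stood at 918, 637 and 573 CPM in the controls and 1367, 910 and 762 CPM in the labelled knockdown, and the groups overlapped. It rose by 0.50 with pairs (SE 0.05, adjusted p = 1.95e-05). Scd2, a stearoyl-CoA desaturase and the most abundant of the 37 genes per kilobase in NPC, stood at 4216, 3506 and 3383 CPM against 4872, 3690 and 3666 CPM. It was higher in all 3 pairs by 0.07 to 0.21 on the log2 scale and did not pass the test (0.13 with pairs, adjusted p = 0.0833).

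Other genes of the wider pathway, from lists drawn up by function, were counted in the same fit with pairs, in which 11.9% of all genes were called higher and 12.8% lower. Of 15 genes of fatty acid synthesis and desaturation, 7 rose and 3 fell, among them the desaturase genes Scd1 (0.65, SE 0.05) and Fads1 (0.46, SE 0.05). The genes of the acetyl-CoA sources went opposite ways: Acss2, which makes it from acetate, went from 37.8 ± 9.45 to 75.2 ± 31.3 CPM (n = 3; 0.94, SE 0.10, adjusted p = 1.86e-05). Acly, which makes it from citrate, went from 322 ± 62.2 to 235 ± 61.1 CPM (n = 3; -0.47, SE 0.05, adjusted p = 3.56e-05). Of 13 genes of the isoprenoid branches, 1 rose (Pdss1, of ubiquinone synthesis, 0.25) and 2 fell (Fnta, -0.20, and Rabggta, -0.27, of protein prenylation), shares near those over all genes. Of 10 accessory genes, 2 rose (Tmem97, 0.55, and Cyb5b, 0.29) and Erlin2 fell (-0.17). Of 17 tested genes of sterol transport, uptake and esterification, 3 rose and 2 fell, also near those shares. They included Scarb1, a receptor for high-density lipoprotein (0.43, SE 0.05), Lipa, the lysosomal lipase (0.32, SE 0.07), Cav1, of caveolae (-1.27, SE 0.16), and Stard3 (-0.24, SE 0.06). Without pair 2 or pair 3 the calls of Pdss1, Fnta, Rabggta, Erlin2 and Stard3 were lost, that of Erlin2 also without pair 1. Without pairs edgeR called none of the genes on these 4 lists in NPC. At an unadjusted p under 0.05, 8 were higher and 5 lower, against 8.41% and 9.94% of all genes.

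The synthesis genes also differed between libraries of the same group, and in the same order in both NPC groups. In 15 of the 19 (78.9%), library 1 was the highest and library 3 the lowest in the controls and again in the labelled knockdown, as for 11.1% of all genes tested. The median SD of the 19 genes between control libraries was 0.36 on the log2 scale (0.13 over all genes). The SD of their 3 pair differences had a median of 0.086 (0.13 over all genes). The spread between the libraries of a group was thus large and shared, and the differences within pairs were close to one another.

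Genes of dividing cells followed the same order. The 10 listed markers of dividing cells summed to 2299, 1699 and 1319 CPM in control libraries 1, 2 and 3 and to 3051, 2323 and 1994 CPM in the labelled knockdown, and all 10 rose with pairs (median 0.47; 0 called without pairs, 3 at an unadjusted p under 0.05). In all 10, library 1 was highest and library 3 lowest in both groups. Of all genes, 11.9% were called higher and 12.8% lower with pairs, and 8.41% were higher at an unadjusted p under 0.05 without pairs. The 6 markers of astrocytes summed to between 2061 and 2109 CPM in the controls and to between 2341 and 2440 CPM in the labelled knockdown. With pairs 4 were higher and 1 lower, and without pairs 0 were called. Of 7 neuronal markers, 1 was called lower, with and without pairs. Of 6 progenitor markers and of 4 tested oligodendrocyte markers, 1 each was higher and 1 lower with pairs. The part of any of these marker lists in the result for the sterol genes was not tested. Libraries 1 and 2 were female and library 3 male in both NPC groups, by the Y-linked gene Ddx3y, so each pair was of 1 sex. Sex and library 3 against the other libraries cannot be told apart, while libraries 1 and 2, of the same sex, also differed in these genes.

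**Figure D3:**
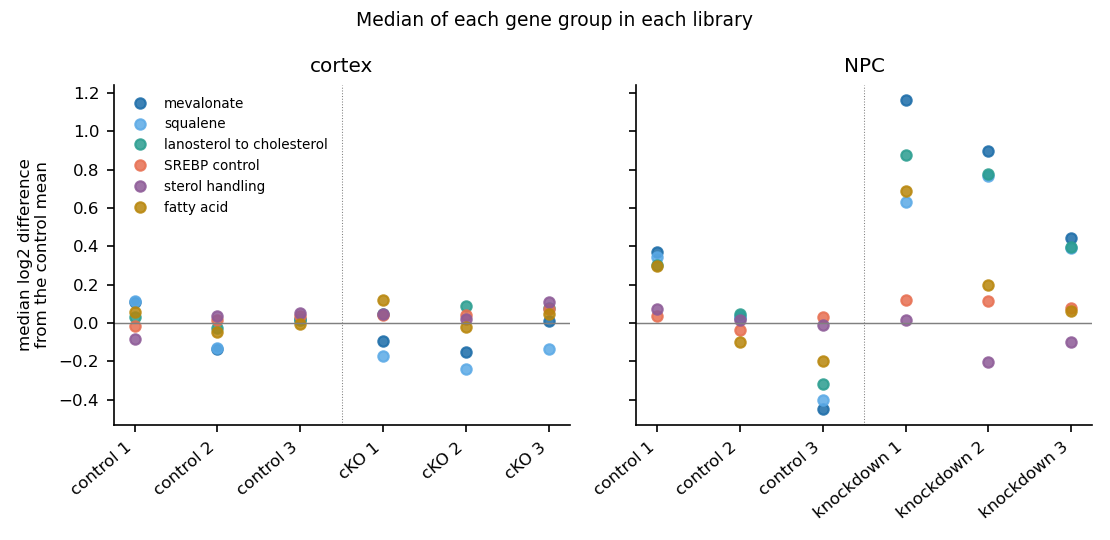
Median log2 difference from the mean of the controls (y axis) of the genes of each role, in each of the 6 cortex libraries (left) and the 6 NPC libraries (right). In NPC the mevalonate genes run from 0.37 in library 1 to -0.45 in library 3 of the controls and from 1.16 to 0.44 in the labelled knockdown; library 3 is also the lowest of its group for the other 2 synthesis roles.

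In cortex, none of the 37 genes was called between the libraries labelled cKO and the controls, by edgeR or by DESeq2. The same edgeR fit called 0.038% of all genes higher and 0.133% lower, and DESeq2 0.693% and 1.28%. At an unadjusted p under 0.05, 3 members were higher and 3 lower (5.36% and 5.53% of all genes). Groups without overlap were found for 5 members in the higher direction and 4 in the lower (8.61% and 8.66% of all genes). The median log2 fold change of the members was 0.03, that of the 19 synthesis genes 0.00.

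The smallest adjusted p in cortex among the members belonged to Fdft1. It stood at 305, 256 and 284 CPM in the controls and 238, 230 and 247 CPM in the libraries labelled cKO, without overlap (-0.24, SE 0.07, 95% interval -0.41 to -0.08, adjusted p = 0.247). Sqle stood at 303, 246 and 281 CPM against 244, 234 and 251 CPM (-0.19, SE 0.08, adjusted p = 0.429). Hmgcs1 was somewhat lower in all 3 labelled cKO libraries, at 1306, 1244 and 1311 CPM against 1448, 1334 and 1406 CPM (-0.12, 95% interval -0.26 to 0.02, adjusted p = 0.543). Over the 37 genes the cortex log2 fold changes ran from -0.24 to 0.46, the highest being that of Nr1h3, which stood at 0.523 to 1.25 CPM there.

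Srebf1 was the control gene furthest from 0 in cortex, at 31.5, 32.2 and 27.6 CPM in the controls and 36.5, 34.1 and 39.9 CPM in the libraries labelled cKO (0.28, SE 0.10, adjusted p = 0.338). Abcg1 stood at 14.0, 13.3 and 14.8 CPM against 16.8, 17.4 and 17.3 CPM (0.29, SE 0.10, adjusted p = 0.334). Both were free of overlap and neither passed. Lss, the gene with the largest rise in NPC, had a cortex difference of 0.08 (95% interval -0.08 to 0.25), and Insig1 one of -0.06 (-0.29 to 0.16). Outside the 37 genes, 1 of the 56 other pathway genes was called in cortex. Gramd1a, which encodes a sterol carrier at contacts between the plasma membrane and the endoplasmic reticulum, fell from 173 ± 11.4 to 88.0 ± 8.69 CPM (n = 3; -0.98, SE 0.08, adjusted p = 0.00341). Without labelled cKO library 1 its value was -0.93 and the call was lost (adjusted p = 0.0522). In NPC it stood at 131 ± 9.71 and 131 ± 16.9 CPM (n = 3).

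**Figure D4:**
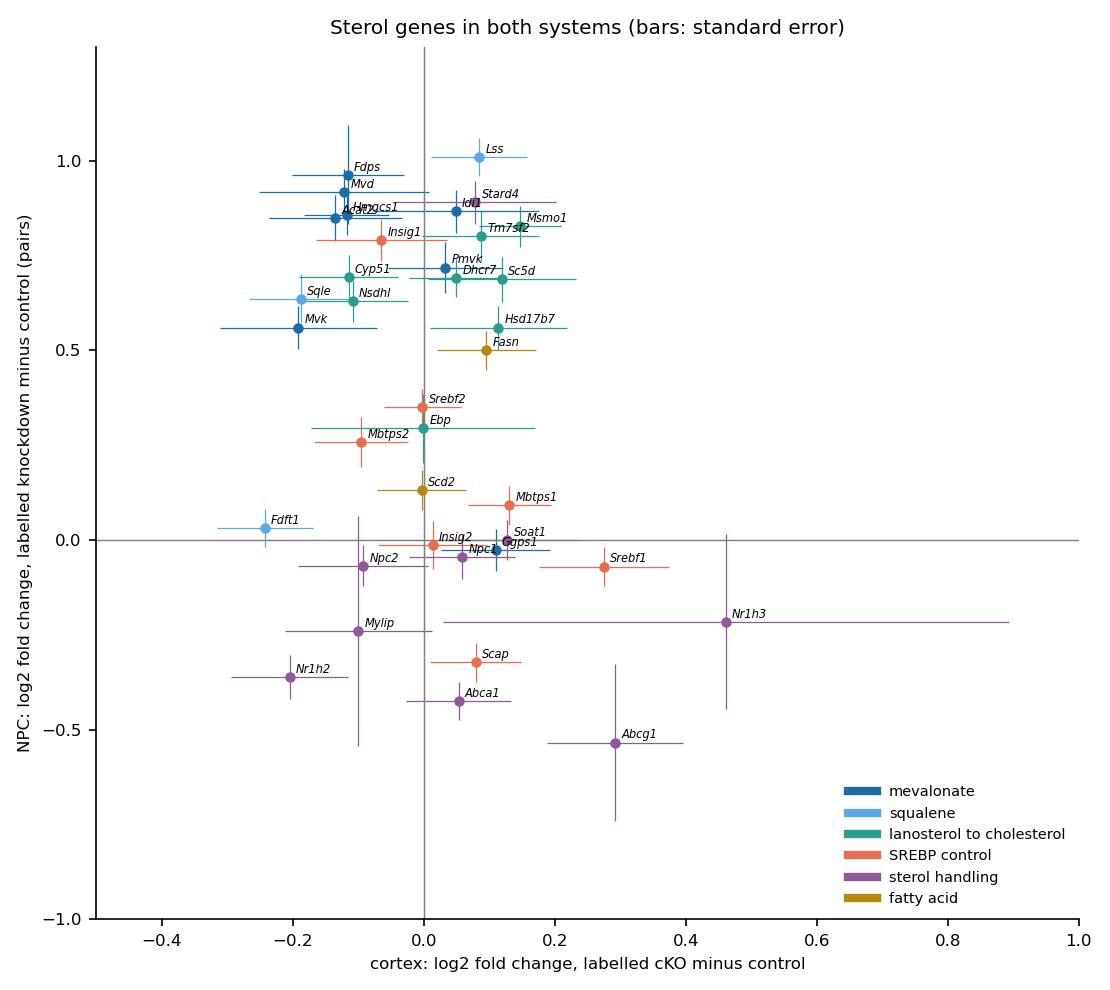
Log2 fold change of each of the 37 genes in cortex (x axis, labelled cKO minus control) against that in NPC with pairs (y axis, labelled knockdown minus control), coloured by role, with bars for the standard error. The synthesis genes spread upwards to 1.01 in NPC (Lss) and lie between -0.24 and 0.15 in cortex.

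Whether a gene differed more in NPC than in cortex was tested as an interaction over all 12 libraries. Without pairs 1 member passed: Sqle, with a difference of 0.83 between the log2 fold changes (SE 0.15, 95% interval 0.50 to 1.17, adjusted p = 0.0207), as did 0.489% of all genes in the higher and 0.972% in the lower direction. The call of Sqle was lost in 7 of the 12 fits that left out 1 library: cortex control 1 or 3, any of the 3 labelled cKO libraries, NPC control 2 or labelled knockdown 2. With pairs in NPC, 19 members passed in the higher direction and 3 in the lower (2.41% and 2.64% of all genes). The 19 were 15 of the synthesis genes with Insig1, Srebf2, Stard4 and Fasn, and the 3 were Scap, Abca1 and Abcg1. For Hmgcs1 the difference was 0.99 (SE 0.08, adjusted p = 9.87e-05), for Lss 0.94 (SE 0.10, adjusted p = 0.000421) and for Insig1 0.87 (SE 0.14, adjusted p = 0.00353). For Abcg1 the difference was -0.81 (SE 0.21, adjusted p = 0.044). Nr1h2 fell with pairs in NPC labelled knockdown and had a log2 fold change of -0.20 (SE 0.09) in cortex. Its difference between the systems was -0.14 (95% interval -0.37 to 0.09). Hsd17b7 (0.46, adjusted p = 0.0738), Ebp (0.31, adjusted p = 0.474) and Fdft1 (0.29, adjusted p = 0.107) did not pass.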

How the data were processed

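RNA-seq counts of 12 libraries were used. The reads were aligned with HISAT2 (version not stated) to mm10, per the submitters' processing notes, and the deposited values are unscaled counts, 1 per gene and library, all whole numbers. The sources used here do not name the counting program, the annotation or the strand setting. All 12 columns were matched to samples by their titles.

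Counts were scaled by TMM and filtered by filterByExpr, and each comparison was tested over all genes kept with the quasi-likelihood test of edgeR 4.0.16 (R 4.3.3); a gene was called at an adjusted p (Benjamini-Hochberg) below 0.05. Cortex and NPC were fitted on their own 6 libraries, the interaction on all 12. NPC was fitted without and with the replicate number as a block, because residuals of same-numbered libraries correlated at 0.48, 0.50 and 0.44 there (0.02, -0.16 and -0.02 in cortex). Levels are CPM with TMM factors, and pair differences use log2 CPM with a prior count of 2. Libraries of a group differed by more than counting noise. Depth was 26074094 to 36713205 counts, so the spread between libraries limits precision more than counting. Positions and exon overlaps came from GENCODE M21, which held 34076 of 34102 identifiers, and promoters from RefSeq.

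All 37 members are reported, with, per other list, up to 4 genes of smallest adjusted p among those called with pairs, and any called in cortex. The members and lists were chosen with earlier results of these data known. Alternatives were DESeq2 1.42.0, RLE scaling, no filter, 1 fit of all libraries, sex, and leaving out libraries. The fits were tested on simulated data. Figures were drawn with matplotlib 3.10.9.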

Additional observations from a re-analysis of the deposited data

Results flagged for a closer look

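The following genes were picked out because the difference between groups was itself different in NPC and cortex, by the interaction test of edgeR. Values are the log2 fold change in NPC minus that in cortex. Without pairs this was Sqle, at 0.83. With pairs in NPC, the log2 fold change was higher in NPC than in cortex for 7 genes of the mevalonate route. They were Acat2 (0.998), Hmgcs1 (0.99), Mvk (0.76), Pmvk (0.70), Mvd (1.05), Idi1 (0.83) and Fdps (1.09). The same held for the squalene genes Sqle (0.84) and Lss (0.94). From lanosterol to cholesterol the values were 0.82 for Cyp51, 0.73 for Tm7sf2, 0.69 for Msmo1, 0.75 for Nsdhl, 0.58 for Sc5d and 0.66 for Dhcr7. Outside synthesis, the log2 fold change was higher in NPC than in cortex for Srebf2 (0.37), Insig1 (0.87), Stard4 (0.83) and Fasn (0.42). It was lower in NPC than in cortex for Scap (-0.39), Abca1 (-0.46) and Abcg1 (-0.81). The cortex libraries do not pair, so their spread enters these tests in full. The groups of 3 libraries were too small for a test of single libraries that stand apart.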

How the results depend on the processing

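The 25 members called in NPC with pairs had the same sign there under all 17 alternatives run in NPC. Signs of uncalled values did change, for 24 member values in cortex and 25 in NPC over all alternatives. In cortex 0 members were called under every alternative; the median of the 37 moved from 0.033 to -0.0153 without the libraries rich in Ttr. In NPC without pairs edgeR called 0 members with RLE scaling and in each fit that left out 1 library, 7 with no count filter, 15 with DESeq2 and 14 in 1 fit of all libraries, where 1.72%, 7.13% and 3.95% of all genes were called (1.89% in the fit reported). With the replicate block it called 25 (24.7% of all genes), and the block also gave 25 with RLE scaling (24.5%), 25 with DESeq2 (18.5%) and 27 with no filter (17.5%). Leaving out a pair gave 24 without pair 1 (30.4%), 23 without pair 2 (15.2%) and 23 without pair 3 (11.4%). Of the 25, 23 were called in each of the 3 fits without a pair; the exceptions were Ebp and Mbtps2. By the interaction 1 member was called (1.46% of all genes), 22 with the replicate block in NPC (5.05%), 18 with it in both systems (3.65%), 4 with no filter (1.19%), 8 with DESeq2 (5.06%) and 25 with DESeq2 and the block in NPC (9.72%), an alternative chosen after seeing the data; leaving out 1 library gave 0 to 7 (7 without NPC control 1, 5 without labelled knockdown 3). The cause of these shifts was not tested, beyond fewer libraries in the leave-one-out fits. The median log2 fold change of the 37 genes in NPC was between 0.33 (without labelled knockdown 1) and 0.67 (without labelled knockdown 3), against 0.51 with all libraries. Depth limits Mylip, Nr1h3 and Abcg1, which stood near or under 3 CPM in NPC.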

Other observations

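By counts per kilobase of exon, the order of the members differed between the systems. In control NPC the highest were Scd2 (677 ± 82.3 CPM per kilobase), Hmgcs1 (198 ± 48.2), Fasn (64.8 ± 16.8) and Insig1 (59.7 ± 13.9), where Fasn and Insig1 do not differ beyond their spread (n = 3 each). In control cortex they were Hmgcs1 (304 ± 12.6), Scd2 (233 ± 12.7), Acat2 (76.2 ± 10.8) and Fasn (70.5 ± 3.57), where the last 2 do not (n = 3 each). Srebf1 ranked 6 of the 37 in control NPC, at 54.6 ± 2.11 CPM per kilobase, and 31 in control cortex, at 5.40 ± 0.435 (n = 3 each). Mylip stood at 0.39 ± 0.0596 in control NPC and 5.30 ± 0.497 in control cortex (n = 3 each). These levels were not tested between systems, which differ in tissue, culture and virus.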
